A study of Homo sapiens with 19 samples.

Results

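Potassium channel genes were taken as the protein-coding genes whose symbol starts with KCN followed by a subfamily letter and a number, from KCNA to KCNV. The rule selected 94 of the 44717 gene identifiers listed for any sample, of which 18485 were protein-coding. They were placed by symbol alone in 6 roles. These included 30 pore-forming subunits of voltage-gated channels and 10 silent modifier subunits of those channels. The 8 members of KCNMA, KCNN, KCNT and KCNU formed the calcium or sodium role. The others were 15 inward rectifiers, 15 tandem-pore-domain members, called leak channels, and 16 auxiliary subunits. A role name describes the subfamilies as a group and need not hold for each member, such as KCNU1 or KCNK7. The symbols of 23 antisense, intronic and other non-coding genes that start with KCN were left out, and KCNJ18, the near-identical copy of KCNJ12, was listed for no sample, so counts of KCNJ12 are uncertain.

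RNA was sequenced from 501Mel cells, a human melanoma line, and from Hermes 3A cells, an immortal human melanocyte line that is not transformed. Both lines had been infected with lentivirus carrying a short hairpin RNA and were selected with puromycin, so that the controls carried a hairpin and the selection too. The 501Mel samples carried shBRG1, against the chromatin remodelling ATPase BRG1 that is encoded by SMARCA4, with shSCR1 as the scrambled control (3 samples each), or shMITF, against the melanocyte transcription factor MITF, with shSCR2 as its control (2 samples each). The Hermes 3A samples carried shSCR, shBRG1 or shMITF (3 samples each), so that both knockdowns of that line shared their controls. Hermes 3A medium held a phorbol ester, cholera toxin, stem cell factor and endothelin-1, which 501Mel medium lacked, so line and medium cannot be told apart, and each line is a single cell line.

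Potassium channels let potassium ions cross the membrane along their gradient and set the resting potential and the shape of electrical signals. Voltage-gated channels open when the membrane depolarizes, and silent subunits form no current alone but join pore-forming subunits and change their gating. Inward rectifiers and leak channels carry potassium at rest, calcium-activated channels couple intracellular calcium to membrane potential, and auxiliary subunits change the traffic or gating of the pore. In pigment cells the inward rectifier KCNJ13 is known from pattern mutants of fish, and KCNJ10 is known from intermediate cells of the inner ear, which are melanocytes.

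The libraries held 29158502 to 78857900 counts each, and 34 to 58 of the members had at least 10 counts in a sample. SMARCA4 fell by 2.36 on the log2 scale (SE 0.054) in 501Mel and by 2.38 (SE 0.048) in Hermes 3A with shBRG1. MITF fell by 1.06 (SE 0.14) in 501Mel with shMITF, and its log2 fold change was -0.85 (SE 0.19) in Hermes 3A. With shBRG1 the log2 fold change of MITF was -1.55 in 501Mel and -0.43 in Hermes 3A. The summed level of 7 melanocyte markers moved with the groups, in RPKM (scaled counts per kilobase of exon). It was 7336 to 7984 in 501Mel shSCR1 and 766 to 842 with shBRG1, and 4966 to 5984 in shSCR2 and 2981 to 3094 with shMITF. In Hermes 3A it was 16920 to 17310 in shSCR, 8281 to 8607 with shBRG1 and 7145 to 9190 with shMITF. With shBRG1 7 markers were called lower in 501Mel and 2 in Hermes 3A, and with shMITF 2 and 3, with 0 called higher. TYR read 189 and 206 RPKM in shSCR2 and 230 and 312 with shMITF. Of 4 keratinocyte markers KRT10 alone reached 1 RPKM in any group, and 4 fibroblast markers summed to 0.377 to 3.68 RPKM per library. Their sum was 0.642 to 0.923 RPKM in 501Mel shSCR1 and 3.00 to 3.62 with shBRG1, where COL1A1, COL3A1 and LUM were called higher, and COL1A1 was called higher with shMITF in 501Mel too. The part of these shifts in the results was not tested, and in bulk RNA fewer cells of a type and less RNA per cell cannot be told apart.

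In the scrambled controls the potassium channel genes were dominated by KCNAB2, a cytoplasmic beta subunit of voltage-gated channels that has an aldo-keto reductase fold. Its level was 44.1, 53.9 and 51.0 RPKM in the 501Mel shSCR1 samples and 41.4 and 48.8 in shSCR2. In Hermes 3A shSCR it was 91.7, 96.7 and 87.4 RPKM. KCNAB2 thus made up 50.8% of the summed level of all members in 501Mel shSCR1, 48.1% in shSCR2 and 67.9% in Hermes 3A, where every sample lay above every 501Mel sample. Divided by the longest transcript in place of all exons its level was 110.8 RPKM in 501Mel shSCR1 and 205.2 in Hermes 3A.

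Next in order in 501Mel shSCR1 came KCNQ5, a pore-forming subunit of the slow M-type current, with 8.42 ± 0.20 RPKM (SD, n = 3). KCNIP2, a calcium-binding partner of the KCND channels, followed with 8.10 ± 0.36, and the samples of these neighbours overlapped. Divided by the longest transcript KCNIP2 came before KCNQ5, at 10.5 and 9.54 RPKM. The small-conductance calcium-activated channel KCNN2 stood at 5.17 ± 0.13 RPKM, above the silent subunit KCNS3 at 4.32 ± 0.19, with no overlap. KCNU1, a large-conductance channel known from sperm, had 3.14 ± 0.17 RPKM, KCNJ10 had 2.61 ± 0.16 and KCNN1 had 1.79 ± 0.049. The last of these overlapped with KCND1, the next in order at 1.66 ± 0.31 RPKM. In all, 12 of the 93 members listed reached a mean of 1 RPKM, 48 averaged under 10 counts, and the top 8 held 85.2% of the sum.

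The order in Hermes 3A shSCR shared KCNAB2, KCNQ5 and KCNS3 with that of 501Mel shSCR1 among the top 8. KCNJ13, an inward rectifier of low single-channel conductance, was the next after KCNAB2 at 13.5, 13.2 and 14.7 RPKM, against 0.127, 0.165 and 0.201 in 501Mel shSCR1. KCNQ5 stood at 5.50 ± 0.36 RPKM (SD, n = 3). The ether-a-go-go channel KCNH1 had 3.75 ± 0.11, KCNS3 had 3.03 ± 0.26, and KCNIP3, a calcium sensor that also binds DNA, had 2.65 ± 0.28, the last pair overlapping in their samples. Divided by the longest transcript the order of these 3 turned, with 5.70 RPKM for KCNIP3, 4.51 for KCNH1 and 3.95 for KCNS3. KCNE4, a single-span auxiliary subunit, had 1.77 ± 0.15 RPKM and the leak channel KCNK6 had 1.30 ± 0.10. The next in order, KCNMB4, overlapped with KCNK6 at 1.27 ± 0.068. The members reaching 1 RPKM numbered 9, and 55 of 93 averaged under 10 counts. The plot of levels in the controls shows the most abundant members of both lines.

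**Figure D1:**
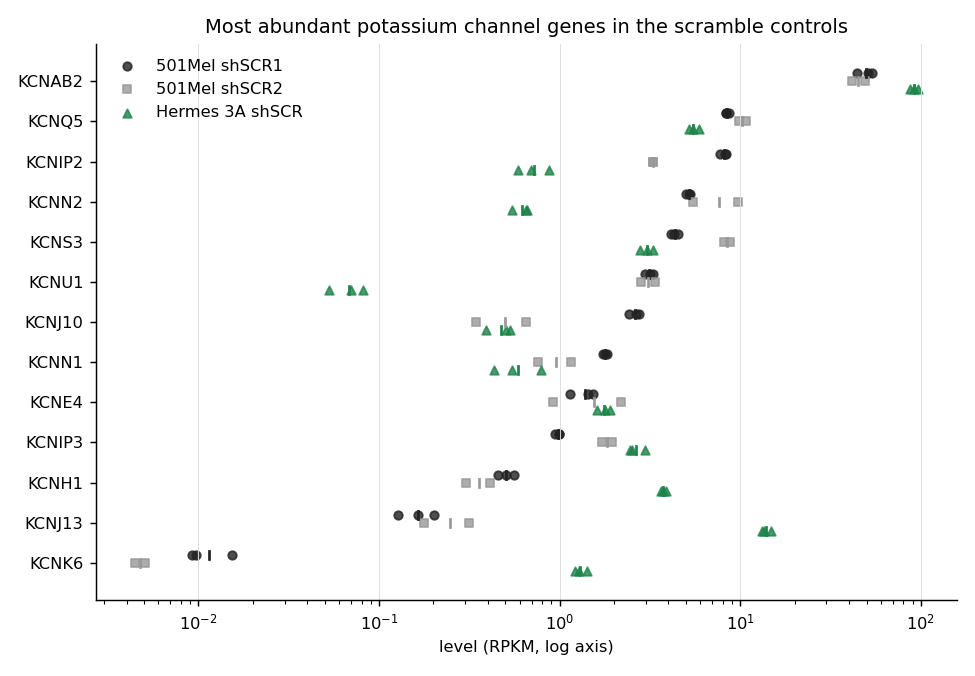
Levels of the 13 members that were among the 8 most abundant in 501Mel shSCR1 or Hermes 3A shSCR, in RPKM on a log axis, with a point per sample of the 3 scrambled sets and a tick at each mean. KCNAB2 is at the top in both lines, and KCNJ13 and KCNK6 are high in Hermes 3A and low in 501Mel, while KCNU1, KCNN2 and KCNIP2 lie the other way and KCNJ10 is high in shSCR1 alone.

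The first comparison set 501Mel shSCR1 against Hermes 3A shSCR. A member was called where edgeR's quasi-likelihood test gave an adjusted p under 0.05 over all genes tested and the log2 fold change exceeded 1 in size. Of 48 members tested 23 were called higher in 501Mel and 7 lower, against 23.1% higher and 18.2% lower (41.4% in all) of 18731 genes. The median log2 difference, 501Mel minus Hermes 3A, was 0.86 over the tested members and 0.038 over all genes. The groups did not overlap for 40 of the 48 members, against 82.8% of all genes. By role, channels of the calcium or sodium role were called higher in 501Mel 4 times and lower 0 times of 5 tested. Voltage-gated pore-forming subunits were called 6 and 1 times of 12, and inward rectifiers 5 and 2 of 8. Leak channels were called 3 and 1 times of 5, auxiliary subunits 3 and 1 of 11 and silent subunits 2 and 2 of 7. These counts depended on the filter and on the scrambled set. With at least 10 counts in every sample 10 members were called higher and 3 lower. With shSCR2 in place of shSCR1 17 were called higher and 13 lower of 48, so that 56.7% of the calls were higher in place of 76.7%. The inward rectifiers turned to 1 higher and 3 lower, the auxiliary subunits to 2 and 3, and the silent subunits to 3 and 3. The calcium or sodium role was then called 2 and 0 times of 4, pore-forming voltage-gated subunits 5 and 2 of 14, and leak channels 4 and 2 of 6.

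Among channels of the calcium or sodium role, KCNU1 was higher in 501Mel by 5.53 on the log2 scale (SE 0.17, adjusted p = 6.8e-20). KCNN2 was higher by 3.11 (SE 0.085, adjusted p = 1.02e-20), KCNN3 by 3.09 (SE 0.23) and KCNN1 by 1.67 (SE 0.15). KCNN2 read 5.19, 5.29 and 5.03 RPKM in 501Mel shSCR1 against 0.648, 0.656 and 0.548 in Hermes 3A. The neuronal voltage-gated channels KCNH5 (log2 difference 5.94, SE 0.36) and KCNH3 (4.04, SE 0.22) were higher in 501Mel, and so was KCNIP2 (3.55, SE 0.10). KCNJ10 was higher there by 2.50 (SE 0.11, adjusted p = 1.71e-16). Against shSCR1 the SK-type genes KCNN1, KCNN2 and KCNN3 were thus all on the 501Mel side, but with shSCR2 KCNN1 and KCNN3 were not called.

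Lower in 501Mel were KCNK6 (log2 difference -6.70, SE 0.23), KCNJ13 (-6.38, SE 0.12, adjusted p = 3.92e-24), KCNJ12 (-5.72, SE 0.34), KCNH1 (-2.85, SE 0.080, with genes on the other strand over 36.9% of its exons) and KCNIP3 (-1.40, SE 0.088). The strong inward rectifier KCNJ12 was read at 0.549, 0.647 and 0.563 RPKM in Hermes 3A and at 0.0142, 0.0134 and 0 in 501Mel, with the copy named above. KCNK6 was read at 1.41, 1.28 and 1.21 RPKM in Hermes 3A against 0.0097, 0.0153 and 0.00925. All 3 samples of one line lay apart from all 3 of the other for each of these 5 genes. KCNJ15, an inward rectifier outside the naming rule and chosen after its values were seen, had 59, 48 and 28 counts in 501Mel shSCR1 and 0 in the Hermes 3A controls. In shSCR1 it was thus at least 39.2-fold higher with a floor of 3 counts over the group. The other scrambled set of 501Mel, shSCR2, held only 3 and 3 counts of it, so the difference rests on shSCR1.

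The scrambled sets of 501Mel themselves differed, and the comparison of the lines depended on which was used. KCNJ10 read 2.74, 2.43 and 2.65 RPKM in shSCR1 but 0.650 and 0.346 in shSCR2, and KCND1, a transient A-type channel, read 2.00, 1.56 and 1.41 against 0.478 and 0.318. With shSCR2 in place of shSCR1 the log2 difference of KCNJ10 from Hermes 3A was 0.072 and that of KCND1 turned to -0.41, and KCNIP3 (-0.50), KCNN1 (0.72) and KCNN3 (0.47) were no longer called. KCNJ13, KCNK6, KCNH1, KCNN2, KCNU1 and KCNIP2 kept their calls.

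The knockdown of BRG1 in 501Mel asked which genes depend on the remodeller in melanoma cells, and it moved the members in both directions. Of 57 members tested 19 were called higher with shBRG1 and 15 lower, against 21.7% higher and 17.4% lower (39.1% in all) of 20514 genes. The median log2 fold change was 0.12 over the tested members and 0.053 over all genes, and the groups did not overlap for 44 of 57 members against 81.4% of all genes. Scaled by library size alone, 22 members were called higher and 13 lower, and the median of all genes moved to 0.40. The summed level of all members went from 97.7 ± 5.46 RPKM (SD, n = 3) to 48.4 ± 1.36, and without KCNAB2 from 48.0 ± 0.48 to 44.3 ± 1.35. The 37 other members were not tested because their counts were too low or they were not listed.

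KCNAB2 fell from the values given above to 4.37, 3.98 and 3.99 RPKM, a log2 fold change of -3.64 (SE 0.065, adjusted p = 4.72e-23). Its share of the summed level was 8.50% with shBRG1. The other auxiliary subunits split: KCNIP2 fell from 7.69, 8.35 and 8.27 to 2.28, 2.19 and 2.25 RPKM (log2 fold change -1.90, SE 0.066), with KCNIP2-AS1 on the other strand over 12.2% of its exons at 0.05 (SE 0.26). KCNMB4, the neuronal beta subunit of large-conductance channels, fell by 1.93 (SE 0.14), and KCNIP3 fell by 1.71 (SE 0.10). KCNAB3, a relative of KCNAB2 in the same beta family, rose from 0.897, 0.798 and 0.922 to 8.17, 8.83 and 7.84 RPKM (log2 fold change 3.21, SE 0.077, adjusted p = 8.66e-21). KCNAB1, the third gene of that family, had a log2 fold change of -0.31 (SE 0.12) and was not called. With shBRG1 the KCNAB3 samples stood above the KCNAB2 samples, the reverse of the controls. In all, 2 auxiliary subunits were called higher and 4 lower of 12 tested.

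Channels of the calcium or sodium role were called lower 3 times and higher 1 time of 6 tested, with a median log2 fold change of -1.31. With at least 10 counts in every sample they were called lower 2 times and higher 0 times of 3. KCNN3 (log2 fold change -3.92, SE 0.21), KCNU1 (-2.58, SE 0.10, adjusted p = 9.81e-17) and KCNN1 (-2.33, SE 0.11) fell. KCNN1 went from 1.83, 1.74 and 1.79 RPKM to 0.332, 0.407 and 0.362. KCNN4, the intermediate-conductance channel of blood cells and epithelia, rose from 0.0293, 0.0332 and 0.0167 RPKM to 0.644, 0.809 and 0.556 (log2 fold change 4.53, SE 0.28). It had 5, 6 and 2 counts in shSCR1 and was tested through the shBRG1 samples, where it was high, so that its call is a description. KCNN2 read 5.40, 5.30 and 5.47 RPKM with shBRG1 and had a log2 fold change of 0.01. The KCNN genes of this line therefore included some that fell, 1 that rose and 1 that was not called.

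Inward rectifiers were called higher and lower equally, 2 and 2 of 8 tested. KCNJ10 fell from the shSCR1 values above to 0.361, 0.282 and 0.277 RPKM (log2 fold change -3.13, SE 0.099, adjusted p = 1.3e-18). KCNJ14 rose from 0.598, 0.412 and 0.480 to 4.68, 5.44 and 4.59 RPKM (log2 fold change 3.26, SE 0.11, adjusted p = 3.04e-18). No shBRG1 sample overlapped an shSCR1 sample for either gene. For KCNJ10 the lower of the shSCR2 levels given above lay among those with shBRG1, so the size of its fall depended on the scrambled set. Its call was kept with both sets pooled. The exons of KCNJ14 overlap genes on the other strand over 16.5% of their length, and whether the counts kept the strands apart is not given. KCNJ13 was low in the controls and fell to 0.0388, 0.0449 and 0.0319 RPKM (log2 fold change -2.08, SE 0.35), while GIGYF2, whose exons overlap those of KCNJ13 on the other strand, had a log2 fold change of -0.46 (SE 0.048). The strong inward rectifier KCNJ2 read 0.980, 1.04 and 0.992 RPKM in shSCR1 and 1.51, 1.54 and 1.60 with shBRG1, a log2 fold change of 0.58 (SE 0.083) that was not called.

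Pore-forming voltage-gated subunits were called higher 4 times and lower 5 times of 16 tested, or 3 and 5 times with DESeq2 size factors and 6 and 3 times with library sizes. Of those called higher KCNH4 and KCNQ1 averaged under 10 counts in shSCR1 and were tested through the shBRG1 samples. With at least 10 counts in every sample the role was called higher 2 times and lower 5 times of 11. KCNQ5 fell from 8.34, 8.29 and 8.65 RPKM to 1.72, 1.65 and 1.58 (log2 fold change -2.40, SE 0.056, adjusted p = 4.81e-21). KCNH5 (-2.56, SE 0.16) and KCNH3 (-1.73, SE 0.13) fell, and so did the fast-deactivating channel KCNC4 (-1.19, SE 0.089), whose log2 fold change was -0.84 with library sizes in place of TMM factors and then missed the call. KCND3, an A-type channel of heart and brain, rose from 0.175, 0.134 and 0.171 to 0.758, 0.684 and 0.673 RPKM (log2 fold change 2.10, SE 0.13). For each of these 5 genes no shBRG1 sample overlapped an shSCR1 sample.

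Silent subunits were called higher 6 times and lower 0 times of 8 tested, and leak channels were called higher 4 times and lower 1 time of 7. Of these KCNF1, KCNG1, KCNV1, KCNK9 and KCNK12 averaged under 10 counts in shSCR1 and were tested through the shBRG1 samples, where they were high, so that the counts are a description. With at least 10 counts in every sample silent subunits were called higher 3 times and lower 0 times of 5, and leak channels 1 and 0 times of 2. Among leak channels KCNK9 rose from 2, 3 and 0 counts to 149, 127 and 114 (log2 fold change 5.82, SE 0.33), and KCNK7 rose from 0.370, 0.301 and 0.201 to 2.05, 2.27 and 1.74 RPKM (log2 fold change 2.70, SE 0.19). The silent subunits called were KCNF1, KCNG1, KCNG2, KCNS1, KCNV1 and KCNV2, all under 100 counts per sample, outside the naming rule for this comparison and chosen after their values were seen. KCNG1 rose from 0.0257, 0.0139 and 0.0210 to 0.176, 0.203 and 0.178 RPKM (log2 fold change 3.14, SE 0.31), but the log2 fold change was 1.19 and not called with both scrambled sets pooled. KCNF1 had 0, 1 and 0 counts in shSCR1 and 15, 13 and 9 with shBRG1 (adjusted p = 1.38e-05). The most abundant silent subunit, KCNS3, read 4.04, 3.77 and 3.97 RPKM with shBRG1, a log2 fold change of -0.19 (SE 0.070). Other members called under 100 counts included KCNE5, KCNH4, KCNH8, KCNJ11, KCNK5, KCNK12 and KCNQ1, which were higher, and KCNK2, which was lower. KCNE5 too averaged under 10 counts in shSCR1.

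**Figure D2:**
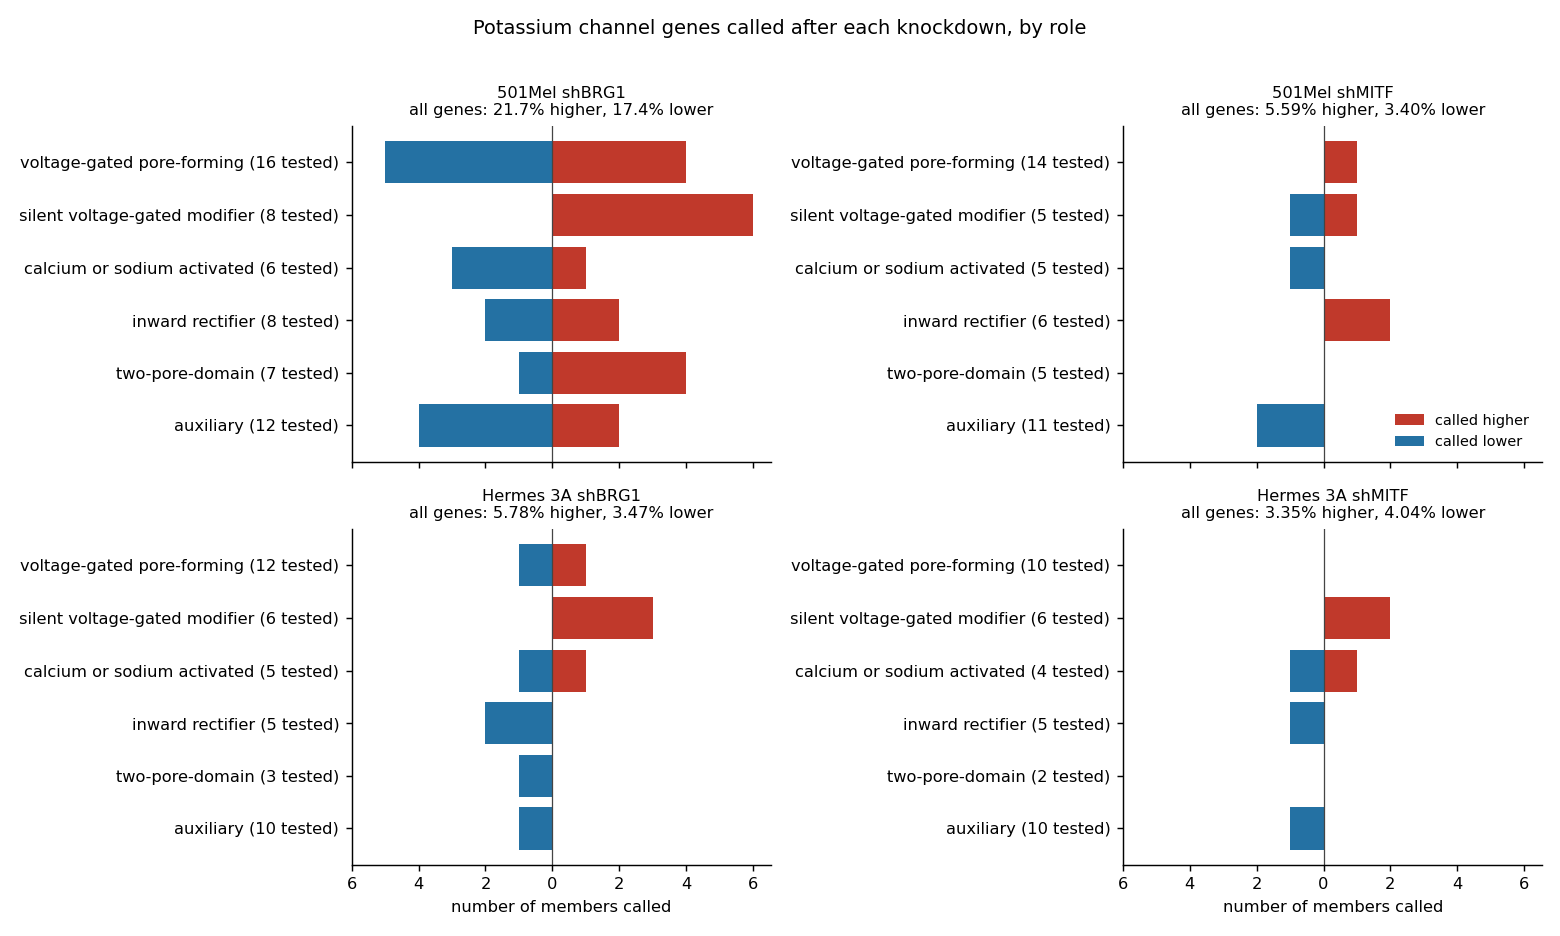
Number of members called higher (to the right) and lower (to the left) after each knockdown by role, with the share of all genes called in each direction in the panel titles. Silent subunits were called higher and not lower with shBRG1 in either line and with shMITF in Hermes 3A, while 501Mel shMITF had 1 in each direction.

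Fewer genes of any kind were called with shMITF in 501Mel, where each group had 2 samples. Of 46 members tested 4 were called higher and 4 lower, against 5.59% higher and 3.40% lower (8.99% in all) of 17701 genes. The median log2 fold change was -0.03 over the tested members and 0.01 over all genes. The groups did not overlap for 25 of 46 members, against 63.1% of all genes. The summed level went from 93.7 ± 8.71 RPKM (SD, n = 2) to 69.4 ± 7.19, and without KCNAB2 it was 48.6 ± 3.49 and 54.4 ± 3.68. Without shMITF replicate 1 the members called higher numbered 7, and without shMITF replicate 2 those called lower numbered 2.

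KCNAB2 fell from 41.4 and 48.8 RPKM in shSCR2 to 17.5 and 12.5 with shMITF (log2 fold change -1.58, SE 0.16, adjusted p = 0.000585). KCNIP2 fell from 3.30 and 3.29 to 1.11 and 1.40 RPKM (log2 fold change -1.38, SE 0.25), and KCNU1 fell from 2.81 and 3.38 to 1.94 and 1.06 (log2 fold change -1.04, SE 0.28). KCNG3, a silent subunit, fell from 1.57 and 0.949 to 0.567 and 0.243 RPKM (log2 fold change -1.64, SE 0.46). No shMITF sample reached a control sample for any of these 4 genes. The calls of KCNG3 and KCNU1 rested on single libraries: the log2 fold change of KCNG3 was -1.19 without shSCR2 replicate 1 and -1.17 without shMITF replicate 2, that of KCNU1 was -0.96 without shSCR2 replicate 2 and -0.70 without shMITF replicate 2, and none of these was called. With both scrambled sets pooled the log2 fold change was -0.65 for KCNG3, whose shSCR1 level was 0.209 RPKM, -2.30 for KCNIP2 and -1.06 for KCNU1, and none was called.

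Higher with shMITF in 501Mel were KCNJ2, KCNS3 and KCND3. KCNJ2 rose from 0.213 and 0.245 to 1.71 and 2.35 RPKM (log2 fold change 3.16, SE 0.30, adjusted p = 0.000422). The shSCR1 controls of the same line had read about 1 RPKM of KCNJ2, between those levels, and with both scrambled sets pooled its log2 fold change was 1.55 and not called. KCNS3 rose from 8.12 and 8.82 to 21.6 and 16.7 RPKM (log2 fold change 1.19, SE 0.15), above KCNAB2 in both samples, although by the longest transcript KCNAB2 stood higher, at 39.0 and 27.9 against 28.3 and 21.8 RPKM. KCND3 rose from 0.337 and 0.451 to 0.987 and 0.689 RPKM (log2 fold change 1.10, SE 0.29), but its log2 fold change was 0.94 without shSCR2 replicate 1 and 0.84 without shMITF replicate 1, and neither was called, nor was its value of 1.72 with both scrambled sets pooled. KCNJ15 was also called higher, from 3 and 3 counts to 11 and 20, while the shSCR1 controls had held 59, 48 and 28. It is outside the naming rule and was chosen after its values were seen.

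Of the 4 genes called lower with shMITF in 501Mel, KCNAB2, KCNIP2 and KCNU1 were also called lower with shBRG1, and KCND3 was called higher in both; the 2 comparisons of 501Mel have separate controls. KCNJ10 read 0.390 and 0.515 RPKM with shMITF, within the range of shSCR2 (log2 fold change -0.12, SE 0.39). KCNQ5 had a log2 fold change of -0.44 (SE 0.14) and KCNIP3 one of -0.77 (SE 0.19), and neither was called. KCNAB3 (0.41), KCNN1 (-0.09), KCNMB4 (0.01) and KCNJ14 (0.86) were not called with shMITF either. The plot of named members shows these values side by side.

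**Figure D3:**
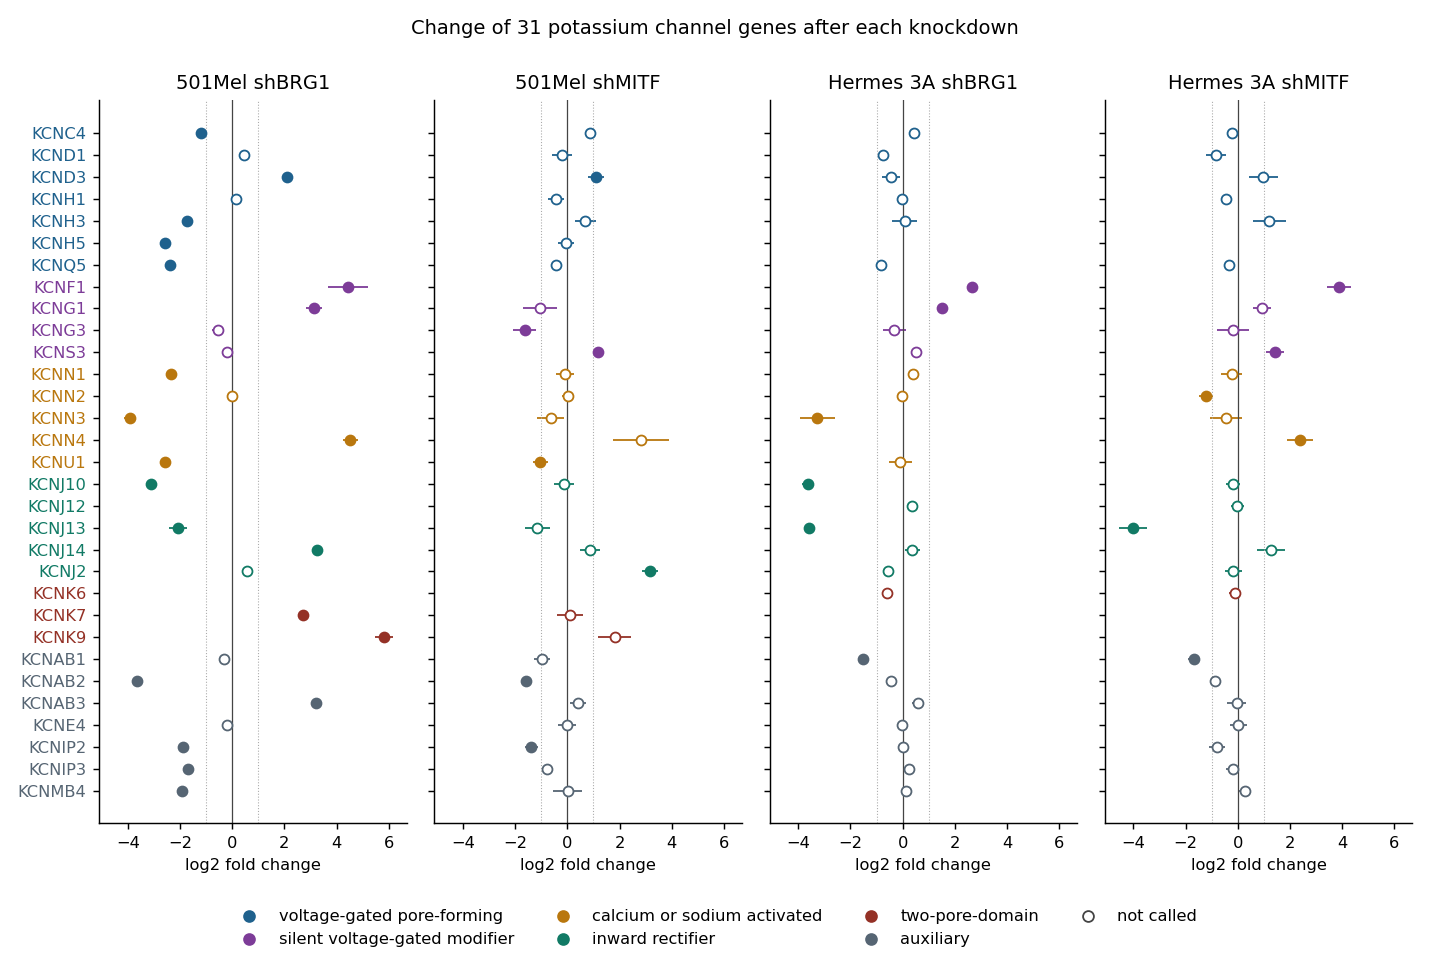
Log2 fold change of the 31 named members after each knockdown, with bars of 1 SE, filled points where the gene was called, open points where it was not, colors by role and dotted lines at -1 and 1. KCNAB2 lies at -3.64 and -1.58 in 501Mel, and KCNJ13 lies at -3.60 and -4.02 in Hermes 3A.

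In Hermes 3A the knockdown of BRG1 asked the same of untransformed melanocytes. Of 41 members tested 5 were called higher and 6 lower, against 5.78% higher and 3.47% lower (9.26% in all) of 17222 genes. The median log2 fold change was 0.03 over the tested members and 0.01 over all genes, and the groups did not overlap for 22 of 41 members against 61.8% of all genes. The summed level went from 135 ± 4.10 RPKM (SD, n = 3) to 103 ± 0.50, and without KCNAB2 from 43.4 ± 0.57 to 35.5 ± 0.72. Without shSCR replicate 1 the members called higher numbered 8.

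The inward rectifiers KCNJ13 and KCNJ10 fell, and each of their shBRG1 samples lay below each control. KCNJ13 went from 13.5, 13.2 and 14.7 RPKM to 1.11, 1.20 and 1.15 (log2 fold change -3.60, SE 0.080, adjusted p = 6.68e-24). KCNJ10 went from 0.392, 0.503 and 0.530 to 0.0438, 0.0353 and 0.0365 RPKM (log2 fold change -3.63, SE 0.25, adjusted p = 4.12e-13). Exons of KCNJ13 overlap those of GIGYF2 on the other strand over 24.2% of their length, and whether the counts kept the strands apart is not given. GIGYF2 had a log2 fold change of -0.24 (SE 0.040) with shBRG1 and of -0.30 (SE 0.12) with shMITF in Hermes 3A. The inward rectifier KCNJ2 had a log2 fold change of -0.55 (SE 0.17) and KCNJ12 one of 0.35 (SE 0.14), and neither was called, so that 2 inward rectifiers were called lower and 0 higher of 5 tested.

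KCNAB1, the beta subunit that inactivates voltage-gated channels, fell from 0.842, 0.891 and 0.913 to 0.255, 0.342 and 0.340 RPKM (log2 fold change -1.51, SE 0.14). It was the single auxiliary subunit called of 10 tested. KCNAB2 went to 67.7, 67.3 and 67.6 RPKM, below every control, but its log2 fold change of -0.46 (SE 0.044) was not past the threshold on size. KCNQ5 went from 5.44, 5.18 and 5.89 to 3.00, 3.02 and 3.32 RPKM with a log2 fold change of -0.84 (SE 0.063), also short of that threshold. KCNIP2 (0.03), KCNMB4 (0.12), KCNU1 (-0.09), KCNH1 (-0.01) and KCNN2 (-0.01) had log2 fold changes near 0.

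The silent subunits KCNF1 and KCNG1 rose. KCNF1 went from 1.04, 0.781 and 0.706 to 5.25, 5.51 and 5.59 RPKM (log2 fold change 2.67, SE 0.12, adjusted p = 6.15e-17). Divided by the longest transcript its mean of 5.45 RPKM stood below those of KCNIP3 (6.86) and KCNS3 (5.74), and above them divided by all exons. KCNG1 went from 0.482, 0.252 and 0.408 to 1.12, 1.25 and 0.984 RPKM (log2 fold change 1.52, SE 0.16, adjusted p = 3.95e-09). With KCNS1 silent subunits were called higher 3 times and lower 0 times of 6 tested, and 3 and 0 times of 5 with at least 10 counts in every sample. KCNS3 had a log2 fold change of 0.52 (SE 0.092) and was not called. The other members called were under 100 counts, outside the naming rule and chosen after their values were seen: KCNH8, KCNMA1 and KCNS1 were higher, and KCNA5, KCNK5 and KCNN3 were lower. KCNMA1, the pore of the large-conductance calcium-activated channel, went from 4, 1 and 2 counts to 19, 28 and 18, and was tested through the shBRG1 samples.

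With shMITF in Hermes 3A the samples spread more, with a common biological coefficient of variation of 21.6% against 5.74% with shBRG1, and 11 members were not listed for the shMITF samples. Of 37 members tested 3 were called higher and 3 lower, against 3.35% higher and 4.04% lower (7.39% in all) of 16508 genes. The median log2 fold change was -0.12 over the tested members and 0.045 over all genes, and the groups did not overlap for 13 of 37 members against 40.9% of all genes. The summed level was 93.5 ± 18.9 RPKM (SD, n = 3), and without KCNAB2 it was 43.7 ± 15.1, against the 43.4 ± 0.57 of the controls. The members called higher numbered 1 without any single shSCR replicate and 7 without shMITF replicate 1.

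KCNJ13 fell to 0.231, 1.63 and 0.655 RPKM with shMITF, all far below the controls (log2 fold change -4.02, SE 0.55, adjusted p = 0.00301). KCNAB1 fell to 0.281, 0.312 and 0.213 RPKM (log2 fold change -1.68, SE 0.24, adjusted p = 0.00339). KCNN2 fell to 0.332, 0.256 and 0.191 RPKM (log2 fold change -1.22, SE 0.28), but it was not called without shSCR replicate 1 (-1.20), replicate 2 (-1.19) or replicate 3 (-1.32). KCNJ10, in contrast to KCNJ13, read 0.336, 0.389 and 0.513 RPKM, which overlapped the controls (log2 fold change -0.18, SE 0.26). KCNAB2 read 42.2, 56.1 and 51.2 RPKM, below every control, with a log2 fold change of -0.86 (SE 0.16) that was short of the threshold on size.

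KCNF1 and KCNS3 rose with shMITF in Hermes 3A. KCNF1 read 7.09, 8.12 and 21.8 RPKM against at most 1.04 in the controls (log2 fold change 3.88, SE 0.45, adjusted p = 0.00161). KCNS3 read 5.27, 5.36 and 13.5 RPKM against 3.03, 2.77 and 3.29 (log2 fold change 1.42, SE 0.35). Replicate 3 of shMITF held the highest value of both genes, and without it the log2 fold change of KCNS3 was 0.84 and not called. It was also not called without shSCR replicate 1 (1.41), replicate 2 (1.35) or replicate 3 (1.47). KCNN4, under 100 counts, outside the naming rule and chosen after its values were seen, was called higher at 0.143, 0.122 and 0.198 RPKM against 0.0405, 0.0262 and 0.0203 (log2 fold change 2.38, SE 0.50), and that call too was lost without shSCR replicate 1 (2.69), replicate 2 (2.31) or replicate 3 (2.16). In the controls KCNN4 averaged under 10 counts, so that it was tested through the shMITF samples. KCNG1 had a log2 fold change of 0.92 and was not called.

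**Figure D4:**
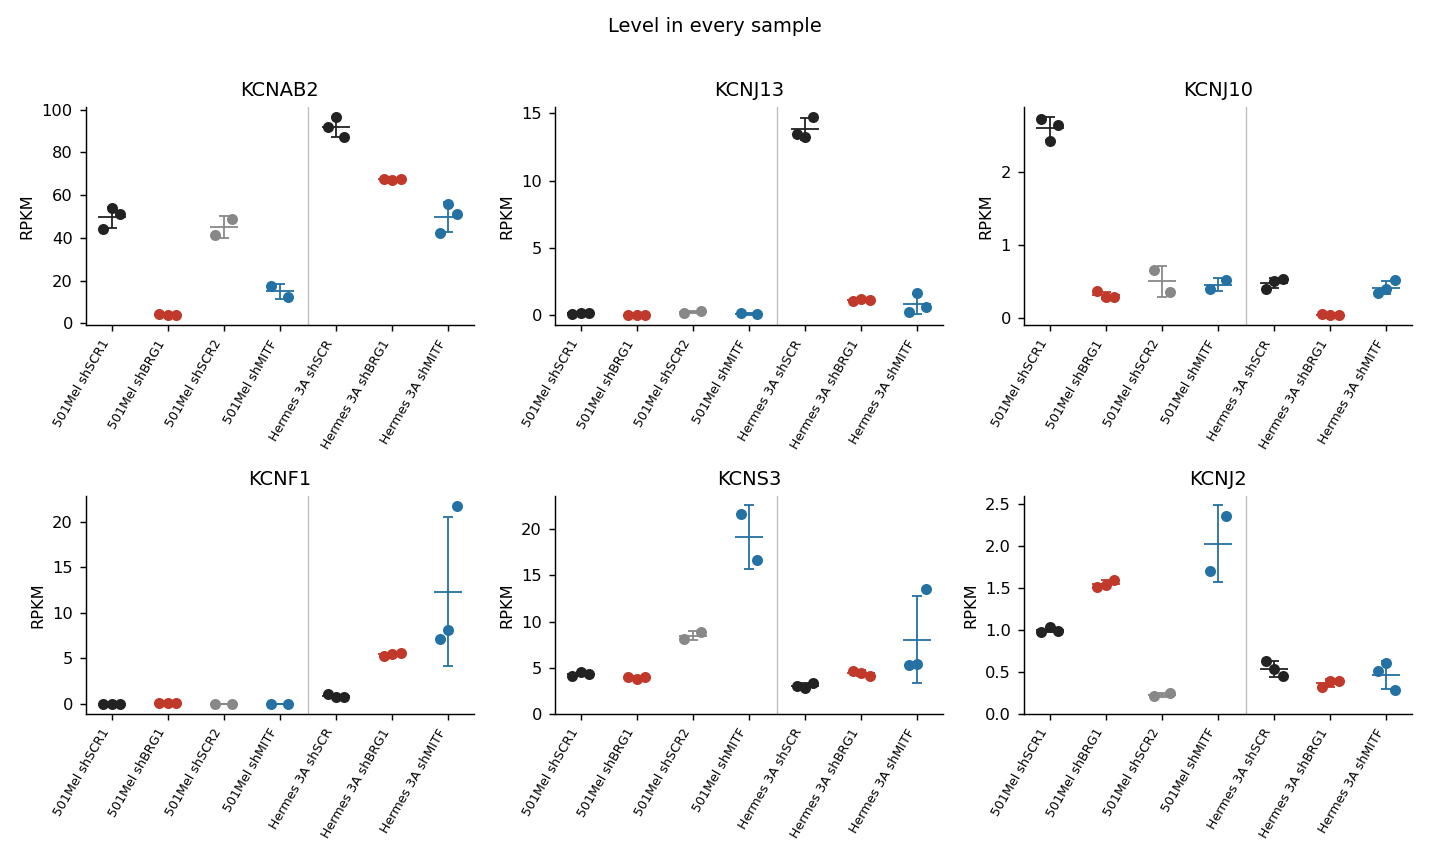
Level in RPKM of 6 members in every sample, with bars of 1 SD around the mean of each group. KCNJ13 stands high in the 3 Hermes 3A controls alone, KCNJ10 in 501Mel shSCR1 alone, and the 3rd shMITF sample of Hermes 3A stands above the other two for KCNF1 and KCNS3.

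The difference between the lines in the response to shBRG1 was tested as the log2 fold change in 501Mel minus that in Hermes 3A. Of 62 members tested 15 were called with a higher and 10 with a lower value in 501Mel, against 12.0% and 14.9% (26.9% in all) of 21697 genes. KCNAB2 fell more in 501Mel, with a difference of -3.21 (SE 0.076, adjusted p = 1.05e-29), and so did KCNQ5 with a difference of -1.59 (SE 0.087). KCNIP2 (-1.97), KCNIP3 (-2.00), KCNMB4 (-2.08), KCNN1 (-2.77), KCNU1 (-2.51), KCNH3 (-1.85) and KCNC4 (-1.64) were all called lower in 501Mel and had log2 fold changes between -0.09 and 0.42 in Hermes 3A. The 501Mel side of these values rests on shSCR1, and no fit of the difference with shSCR2 was run. With both scrambled sets pooled KCNIP2 fell by 1.47 (SE 0.37) in 501Mel, still called. In shSCR2, with libraries of 31651379 and 78857900 counts, KCNMB4 had 72 and 69 counts and KCNH3 142 and 148. In shBRG1 replicate 1, of 46672770 counts, they had 58 and 95. Counts in the Hermes 3A controls were 12, 7 and 14 for KCNU1 and 11, 6 and 18 for KCNH3. The genes that fell in 501Mel alone thus came from the auxiliary, the voltage-gated and the calcium or sodium roles. All 7 melanocyte markers were called lower in 501Mel in the same test, the fibroblast markers COL1A1 and LUM were called higher, and their part in these values was not tested.

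On the other side the difference was 2.61 (SE 0.20) for KCNAB3, 2.52 (SE 0.31) for KCND3 and 2.82 (SE 0.33) for KCNJ14. It was 5.47 (SE 1.31) for KCNK9, 2.85 (SE 0.64) for KCNK7 and 2.73 (SE 0.72) for KCNN4. All of these had risen in 501Mel. KCNK9, KCNK7 and KCNN4 were not tested within Hermes 3A with shBRG1, where they held few counts. KCNK9 had 5, 0 and 1 counts in shSCR and 0, 2 and 7 with shBRG1. KCNK7 had 5, 5 and 6 and then 11, 4 and 2, and KCNN4 had 6, 3 and 3 and then 20, 23 and 7. KCNAB1, which fell in Hermes 3A, had a difference of 1.17 (SE 0.19), and KCNJ13, which fell in both lines, had one of 1.50 (SE 0.38). The call of KCNK9 was lost without Hermes 3A shSCR replicate 1 (3.70). KCNJ2 had a difference of 1.10 (SE 0.18), which was 0.93 without Hermes 3A shSCR replicate 1 and 0.98 without shBRG1 replicate 1 and then not called. KCND1 had a difference of 1.16 (SE 0.21), which was 0.97 and not called without Hermes 3A shSCR replicate 2.

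Members called in the same direction in both lines with shBRG1 were KCNF1, KCNG1, KCNH8 and KCNS1, which were higher, and KCNJ10, KCNJ13 and KCNN3, which were lower. The log2 difference between the lines was 0.47 (SE 0.27) for KCNJ10, which was not called, and 1.59 (SE 0.42) for KCNG1, which was. KCNK5, a leak channel open at alkaline pH, was called higher in 501Mel (8, 34 and 15 counts against 69, 60 and 47) and lower in Hermes 3A (12, 22 and 11 counts against 3, 11 and 7). It was the single member called in opposite directions, but shSCR2 held 124 and 146 counts in 501Mel, and its levels there, 1.03 and 0.536 RPKM, lay above those with shBRG1, 0.303, 0.267 and 0.237. With both scrambled sets pooled the log2 fold change of KCNK5 in 501Mel was -0.51 and not called, so its direction there depended on the scrambled set. It is outside the naming rule and was chosen after its values were seen. Its log2 difference between the lines was 2.59 (SE 0.59, adjusted p = 0.00027).

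**Figure D5:**
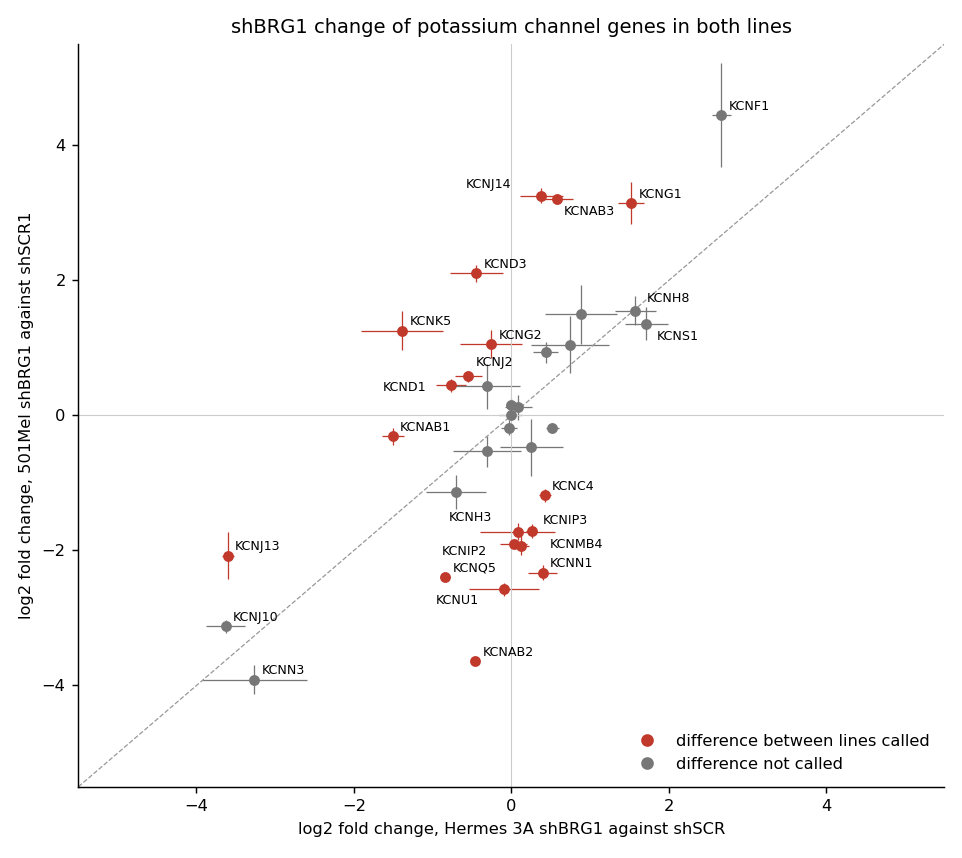
Change with shBRG1 on the log2 scale, Hermes 3A on the x axis and 501Mel on the y axis, for the 36 members tested in both lines, with red points for the 19 whose difference between lines was called, grey points for the others, bars of 1 SE and a dashed line of equal change. The place of KCNF1 on the y axis depends on a prior count, since its controls held 1 count in all. KCNJ10 lies low on both axes, KCNAB2 lies low on the y axis alone, and KCNF1 lies high on both.

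For shMITF the difference between the lines was called for KCNJ2 alone of 54 members tested, against 2.00% higher and 0.643% lower (2.64% in all) of 19284 genes. It was 3.32 (SE 0.48, adjusted p = 0.00362), with a log2 fold change of 3.16 in 501Mel and of -0.17 in Hermes 3A. In Hermes 3A KCNJ2 read 0.510, 0.601 and 0.282 RPKM with shMITF and 0.627, 0.529 and 0.447 in the controls. The 501Mel value rests on shSCR2. With both scrambled sets pooled the log2 fold change of KCNJ2 in 501Mel was 1.55 and not called. The difference was -0.72 (SE 0.24) for KCNAB2, 2.84 (SE 0.97) for KCNJ13 and 1.22 (SE 0.35) for KCNN2, and none was called. KCNS3 was the member called higher with shMITF in both lines.

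Across the 4 knockdown comparisons 42 of the 94 members were called at least once, 29 were tested in none and 30 in all 4. The 42 were 64.6% of the 65 tested in any comparison, against 44.0% of 22197 genes, and genes differed in how many comparisons tested them. KCNJ13 and KCNF1 were called in 3 comparisons, KCNJ13 always lower and KCNF1 always higher, and KCNF1 could not be tested in 501Mel with shMITF, where it had 0 and 0 counts in shSCR2 and 0 and 1 with shMITF. The summed level of the 10 silent subunits was 4.75 ± 0.43 RPKM in Hermes 3A shSCR, 11.6 ± 0.28 with shBRG1 and 21.6 ± 12.9 with shMITF (SD, n = 3), and in 501Mel it was 5.23 ± 0.18 and 5.91 ± 0.13 in shSCR1 and shBRG1 and 10.4 ± 0.11 and 20.1 ± 3.81 in shSCR2 and shMITF (n = 2). KCNF1 and KCNS3 made up most of these sums in Hermes 3A and KCNS3 most in 501Mel. Both Hermes 3A comparisons share their controls.

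Other genes of potassium transport were read from a list of 35 genes: partners of the channels, pacemaker channels, subunits of the sodium-potassium ATPase and cation-chloride cotransporters. In 501Mel 3 were called higher and 7 lower with shBRG1 of 24 tested, against 21.7% and 17.4% of all genes, with a median log2 fold change of -0.17 against 0.053. With shMITF 3 were called higher and 2 lower of 21, against 5.59% and 3.40%, with medians of 0.12 and 0.01. In Hermes 3A 2 were called higher and 2 lower with shBRG1 of 17, against 5.78% and 3.47%, with medians of -0.14 and 0.0093. With shMITF 1 was called higher and 1 lower of 15, against 3.35% and 4.04%, with medians of 0.073 and 0.045. HCN2, a pacemaker channel that passes sodium and potassium, was called higher in all 4 comparisons, with log2 fold changes of 1.00 (SE 0.087) and 2.31 (SE 0.27) in 501Mel and of 1.15 (SE 0.071) and 1.58 (SE 0.25) in Hermes 3A, in the order shBRG1 and shMITF. ATP1B1, a beta subunit of the ATPase, fell with shBRG1 in both lines, with log2 fold changes of -1.92 (SE 0.050) in 501Mel and -1.66 (SE 0.17) in Hermes 3A.

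Promoters were read from RefSeq (GRCh38.p14), and the 250 bases before each start were searched on both strands for 3 words. The search covered 108 promoters of 70 of the members. KCNB2, KCNK9, KCNQ3, KCNS2, KCNU1 and KCNV1 were left out by their chromosome, while the set of all promoters had no such exclusion. The words CACGTG and, less strictly, CATGTG are E-boxes that MITF is known to bind, and the second of them reads CACATG on the other strand. The word ACAAAG, on the other strand read as CTTTGT, is the core bound by SOX10, a melanocyte factor. CACGTG occurred in 7 of the 108 promoters (6.48%) and in 6.34% of all 35116 promoters, CATGTG in 9 (8.33%) against 9.42%, and ACAAAG in 16 (14.8%) against 13.7%. These shares were close to those of all promoters. A match is a description of letters and not of binding, and no binding data were read here.

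Shown are promoters of the genes whose changes the text turns on, 5′ to 3′ on the strand of the gene and ending at the base before the start, with matches in capitals. The KCNJ13 promoter, of the inward rectifier that fell in 3 comparisons, lies at chr2:232776566-232776815 on the minus strand, with CACATG starting 112 bases before the start. KCNJ10, called lower with shBRG1 in both lines, has its promoter at chr1:160070161-160070410 on the minus strand, with ACAAAG 103 bases before. For KCNAB2, the most abundant member, the promoter of 1 of 4 annotated starts is shown, the one with a CACGTG 14 bases before, at chr1:6034438-6034687 on the plus strand. For KCNIP2, called lower in both 501Mel comparisons, it is 1 of 2 starts, at chr10:101839872-101840121 on the minus strand, with CACATG 159 bases before. KCNF1 at chr2:10911684-10911933 and KCNS3, 1 of 2 starts, at chr2:17877597-17877846, both on the plus strand, hold none of these words in the window. KCNF1 was called higher in 3 comparisons. KCNS3 was called higher with shMITF alone, and its call in Hermes 3A was lost under 6 of 14 alternatives. Starts with an E-box were shown first where a gene had several, so these promoters do not compare genes that fell with genes that rose.
KCNJ13: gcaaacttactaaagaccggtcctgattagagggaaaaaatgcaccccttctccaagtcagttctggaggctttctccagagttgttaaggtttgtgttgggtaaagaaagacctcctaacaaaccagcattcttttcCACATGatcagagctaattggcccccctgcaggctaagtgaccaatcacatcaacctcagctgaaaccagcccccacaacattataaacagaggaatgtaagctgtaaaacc
KCNJ10: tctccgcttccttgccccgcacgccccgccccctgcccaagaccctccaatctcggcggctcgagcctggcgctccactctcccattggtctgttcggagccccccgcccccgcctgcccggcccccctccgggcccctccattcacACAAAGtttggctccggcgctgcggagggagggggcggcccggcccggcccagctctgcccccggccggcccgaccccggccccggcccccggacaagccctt
KCNAB2: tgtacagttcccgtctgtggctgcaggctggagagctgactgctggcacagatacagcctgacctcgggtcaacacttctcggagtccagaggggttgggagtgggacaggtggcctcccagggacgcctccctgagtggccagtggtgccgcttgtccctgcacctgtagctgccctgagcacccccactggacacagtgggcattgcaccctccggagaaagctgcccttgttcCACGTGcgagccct
KCNIP2: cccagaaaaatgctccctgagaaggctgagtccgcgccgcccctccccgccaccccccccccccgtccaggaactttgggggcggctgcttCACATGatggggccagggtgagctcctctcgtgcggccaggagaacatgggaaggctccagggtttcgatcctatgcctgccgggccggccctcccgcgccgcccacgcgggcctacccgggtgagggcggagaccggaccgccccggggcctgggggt
KCNF1: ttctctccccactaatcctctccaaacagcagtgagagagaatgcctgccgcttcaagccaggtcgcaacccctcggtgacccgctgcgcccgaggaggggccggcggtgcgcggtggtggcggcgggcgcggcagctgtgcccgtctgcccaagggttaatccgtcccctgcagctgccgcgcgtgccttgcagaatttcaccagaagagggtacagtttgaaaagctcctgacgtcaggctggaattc
KCNS3: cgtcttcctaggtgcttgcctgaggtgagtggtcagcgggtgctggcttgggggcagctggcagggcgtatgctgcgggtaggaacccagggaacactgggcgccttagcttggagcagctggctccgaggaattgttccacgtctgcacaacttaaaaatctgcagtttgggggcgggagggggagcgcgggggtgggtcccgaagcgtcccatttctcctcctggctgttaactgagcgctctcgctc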

How the data were processed

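RNA was sequenced from 19 samples in 7 groups after depletion of ribosomal RNA and a duplex-specific nuclease step, which lowers abundant sequences. Per the labels, the authors mapped the reads with TopHat 1.4.1 and Bowtie 0.12.7 to hg19 after CASAVA 1.8, and deposited raw read counts per Ensembl gene, a file per sample. The program that counted the reads, its annotation and its use of strand are not given in the sources used here. The study's methods give a minimum of 3 repeats per experiment, without saying whether the libraries of a group came from separate infections (shMITF in 501Mel has 2), so p-values measure the spread between these samples, which may be technical. No file held columns of other samples. Replicate libraries differed by more than sampling noise (chi-square per degree of freedom 2.27 to 157).

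Groups were compared with the quasi-likelihood test of edgeR 4.0.16 (limma 3.58.1, R 4.3.3) on TMM-scaled counts, with filterByExpr and Benjamini-Hochberg adjustment over all genes tested, and genes were called where the adjusted p fell below 0.05 and the change was larger than 1 on the log2 scale, the study's thresholds. The study names no test. Levels were TMM-scaled counts divided by the merged exons of GENCODE 29 (GRCh38, matched by Ensembl identifier, another build than that of the counts) and called RPKM. The fits were tested on simulated counts, where all 200 genes given a change were recovered in each comparison. The simulated spread was smaller than that of the shMITF comparisons. The changed genes also had more counts than many members, so the simulation does not cover those cases. Alternatives were DESeq2 1.42.0, library sizes, other filters and thresholds, other controls and samples left out. Tables and plots used Python 3.11.15, numpy 2.4.6, pandas 2.3.3 and matplotlib 3.10.9.

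The members, roles and lists were chosen with earlier results of these data known, and the falls of KCNJ10 and KCNJ13 in Hermes 3A are no independent support. Members were named where they were called with at least 100 counts per sample in the higher group, were among the 8 most abundant in 501Mel shSCR1 or Hermes 3A shSCR, or were KCNJ10 or KCNJ13. Exons of 28 members overlap those of a gene on the other strand.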

Additional observations from a re-analysis of the deposited data

Results flagged for a closer look

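The response to knockdown differed between 501Mel and Hermes 3A, by the test of the difference itself in edgeR, for 21 members with shBRG1, of which KCNJ12 is uncertain, and for 1 with shMITF among those with at least 100 counts. All values are log2 fold changes in 501Mel, each against its own scrambled set, minus those in Hermes 3A, and no fit with the other set was run. For shBRG1 the difference was -3.21 for KCNAB2, -2.77 for KCNN1, -2.51 for KCNU1, -2.08 for KCNMB4, -2.02 for KCNJ12, -2.00 for KCNIP3, -1.97 for KCNIP2, -1.85 for KCNH3, -1.64 for KCNC4 and -1.59 for KCNQ5. On the other side it was 5.47 for KCNK9, 2.85 for KCNK7, 2.82 for KCNJ14, 2.73 for KCNN4, 2.61 for KCNAB3, 2.52 for KCND3, 1.59 for KCNG1, 1.50 for KCNJ13, 1.17 for KCNAB1, 1.16 for KCND1 and 1.10 for KCNJ2. For shMITF it was 3.32 for KCNJ2, whose change in 501Mel was 1.55 and not called with both scrambled sets pooled. KCNK9, KCNK7 and KCNN4 were not tested within Hermes 3A with shBRG1, where they held few counts. The value of KCNJ12 had an SE of 0.89 and an adjusted p of 0.05 after rounding, its call was lost under 13 of 17 alternatives, and the gene was not tested within 501Mel, which held 4, 4 and 0 counts in shSCR1 and 2, 0 and 1 with shBRG1.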

How the results depend on the processing

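Of 83 results for named members 59 kept their call under every alternative in which the member was tested, and 24 lost it under at least 1. Among the 24 were 6 of 7 with shMITF in 501Mel and 4 of 6 with shMITF in Hermes 3A. All 6 named results with shBRG1 in Hermes 3A and 19 of 21 with shBRG1 in 501Mel kept theirs in this sense. Members below the filter of an alternative were not tested there. With at least 10 counts in every sample these included KCNF1, KCNJ13, KCNK9, KCNN3 and KCNN4 with shBRG1 in 501Mel, and KCNN3 with shBRG1 in Hermes 3A. KCND1 turned to -0.41 between the lines with shSCR2 in place of shSCR1. Of 210 counts of called members 178 stayed within 1.5 times, and the rest were as follows. With at least 10 counts in every sample, 10 members were called higher with shBRG1 in 501Mel, 3 lower with shBRG1 in Hermes 3A, 7 higher in the shBRG1 difference, 2 higher in the shMITF difference, and 10 higher and 3 lower between the lines. With glmTreat, 1 was called higher and 1 lower with shMITF in either line, and 3 higher with shBRG1 in Hermes 3A. Without a threshold on size, 11 were called higher and 11 lower with shBRG1 in Hermes 3A, and 14 lower between the lines. With all groups of a line in 1 fit, 10 were called higher with shMITF in 501Mel and 6 in Hermes 3A. With both scrambled sets pooled, 2 were called higher and 1 lower with shMITF in 501Mel. With shSCR2 in place of shSCR1, 13 were called lower between the lines. In the shMITF difference, 3 were called higher with DESeq2 and 3 without a filter. In the comparisons with 3 samples per group, samples with the same number did not deviate together in every pair (correlations of -0.0487 to 0.0492). There not every sample correlated best with its own number. With shMITF in 501Mel the correlations were 0.131 for the same number and -0.131 for the other. With 2 samples per group these are 1 value with both signs. With the replicate block 2 members were called higher in the shMITF difference, and the shBRG1 difference of KCNJ12 lost its call. No other call of a named member was lost with the block.

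Without 1 replicate at a time, the members called numbered 17 to 20 higher and 15 to 17 lower with shBRG1 in 501Mel, 3 to 7 and 2 to 5 with shMITF in 501Mel, 5 to 8 and 5 with shBRG1 in Hermes 3A, 1 to 7 and 2 to 3 with shMITF in Hermes 3A, 12 to 16 and 9 to 12 in the shBRG1 difference, 1 to 3 and 0 in the shMITF difference, and 19 to 21 and 7 to 10 between the lines. With shMITF in 501Mel, 7 were called higher without shMITF replicate 1 and 2 lower without shMITF replicate 2. In Hermes 3A 8 were called higher with shBRG1 without shSCR replicate 1, and 7 with shMITF without shMITF replicate 1. With library sizes the median of all genes with shBRG1 in 501Mel moved from 0.053 to 0.40, the calls of all genes were 72.0% higher in place of 55.5%, and 22 members were called higher and 13 lower. Of the members 35 to 55 held under 10 counts per sample on average in a group, so that their values rest on few reads. The causes of these changes were not tested.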
